A study of Mus musculus with 4 samples.

Results

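The genes of tooth matrix formation were followed through 4 RNA-seq libraries of mouse calvarial bone. They are *Dspp*, which encodes the main phosphoprotein of dentin, the enamel matrix genes *Amelx*, *Ambn*, *Enam*, *Amtn* and *Odam*, and the enamel protease genes *Klk4* and *Mmp20*. The list was chosen by gene symbol because *Dspp* was high in *Twist1*+/- frontal bone, and all 8 symbols were found among the 23946 genes measured. The level of *Dspp* in that library is therefore a description. Total RNA came from frontal and parietal bones of C57BL/6J mice at postnatal day 21, either wild-type or heterozygous for *Twist1*, with 12 mice of each strain. *Twist1* encodes a transcription factor of the cranial mesenchyme, of which the heterozygous animals carry 1 functional copy. Frontal bone derives from neural crest, parietal bone from mesoderm. Each genotype and bone is represented by 1 library, that is, by 1 column of values. The study's methods speak of replicates, and whether a column pools several is not stated. Differences could therefore not be checked against replicates, and p-values are left out.

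Dentin is laid down by odontoblasts, which arise from dental mesenchyme, and enamel by ameloblasts, which arise from the oral epithelium. Ameloblasts first secrete amelogenin (*Amelx*), ameloblastin (*Ambn*) and enamelin (*Enam*) together with the metalloproteinase *Mmp20*, and later, during maturation, make the serine protease *Klk4*, amelotin (*Amtn*) and the odontogenic ameloblast-associated protein *Odam*. *Dspp* belongs to the SIBLING family of acidic phosphoproteins, whose other members *Dmp1*, *Ibsp*, *Mepe* and *Spp1* are abundant in bone. Most of these genes descend from a common family of secreted calcium-binding phosphoproteins and lie in clusters. In the mm9 annotation *Odam*, *Amtn*, *Ambn* and *Enam* follow each other on the forward strand of chromosome 5, from 88314054 to 88935074, in a stretch that also holds the casein gene *Csn3*. The gap between *Amtn* and *Ambn* is 70.1 kb and that between *Ambn* and *Enam* 19.5 kb. *Dspp* lies farther along chromosome 5, from 104599731 to 104609146, and is followed by *Dmp1* after 22.5 kb. *Amelx* lies on chromosome X from 165614046 to 165625132, on the strand opposite to *Arhgap6*, whose span contains it without any shared exon. *Klk4* is on chromosome 7 from 51136530 to 51141174 and *Mmp20* on chromosome 9 from 7628231 to 7674968. No stretch of 75 bases, the read length, in the longest coding transcript of any of the 8 genes occurred in a coding transcript of another gene.

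The bases just upstream of the starts of these genes are shown, and whether they bear on the levels was not tested. RefSeq promoter entries (build GRCm38.p6) were found for 7 of the 8 genes, *Dspp* being the one without an entry. The 120 bases before each start are given 5′ to 3′ on the strand of the gene, with every match to TGATTGG in capitals.
*Amelx*, chrX:169187210-169187329, reverse strand: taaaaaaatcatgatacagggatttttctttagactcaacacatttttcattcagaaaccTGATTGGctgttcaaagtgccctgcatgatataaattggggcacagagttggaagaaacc
*Ambn*, chr5:88455871-88455990, forward strand: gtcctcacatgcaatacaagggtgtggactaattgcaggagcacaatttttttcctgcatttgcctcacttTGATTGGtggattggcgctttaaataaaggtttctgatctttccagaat
*Enam*, chr5:88487855-88487974, forward strand: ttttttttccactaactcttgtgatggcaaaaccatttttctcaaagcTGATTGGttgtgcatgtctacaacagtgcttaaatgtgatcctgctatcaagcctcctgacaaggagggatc
*Amtn*, chr5:88375988-88376107, forward strand: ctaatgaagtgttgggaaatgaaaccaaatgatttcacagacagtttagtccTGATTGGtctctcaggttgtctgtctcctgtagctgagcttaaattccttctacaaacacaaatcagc
*Odam*, chr5:87884890-87885009, forward strand: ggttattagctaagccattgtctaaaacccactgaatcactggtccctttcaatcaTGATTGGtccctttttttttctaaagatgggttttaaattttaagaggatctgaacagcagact
*Klk4*, chr7:43881040-43881159, forward strand: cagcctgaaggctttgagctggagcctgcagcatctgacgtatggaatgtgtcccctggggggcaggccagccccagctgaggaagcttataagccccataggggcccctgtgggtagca
*Mmp20*, chr9:7628111-7628230, forward strand: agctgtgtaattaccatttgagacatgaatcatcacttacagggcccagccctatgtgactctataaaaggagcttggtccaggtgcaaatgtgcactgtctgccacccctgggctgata
Each of these windows occurred exactly 1 time, unchanged, on the same chromosome of mm9. All 5 enamel matrix genes held TGATTGG on the strand of the gene, beginning 60 bases before the start in *Amelx* (-60), 49 in *Ambn* (-49), 72 in *Enam* (-72), 68 in *Amtn* (-68) and 64 in *Odam* (-64). On the opposite strand these letters read CCAATCA, which contains the CCAAT box. Over the whole 250 bases upstream, searched on both strands, the 5 genes held no further match, and *Klk4* and *Mmp20* held none. Among 32851 RefSeq promoter entries of the same length, 7.23% held the motif in 250 bases on either strand. In the nearest 120 bases 2.63% held it on the strand of the gene. The motif was picked after the sequences had been read, and a match describes letters and not binding. The CANNTG motif, which Twist1 and other bHLH factors recognise, occurred in 66.2% of the entries, and in *Amelx* (1 match), *Ambn* (2), *Amtn* (2), *Klk4* (3) and *Mmp20* (4) but not in *Enam* or *Odam*.

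**Figure D1:**
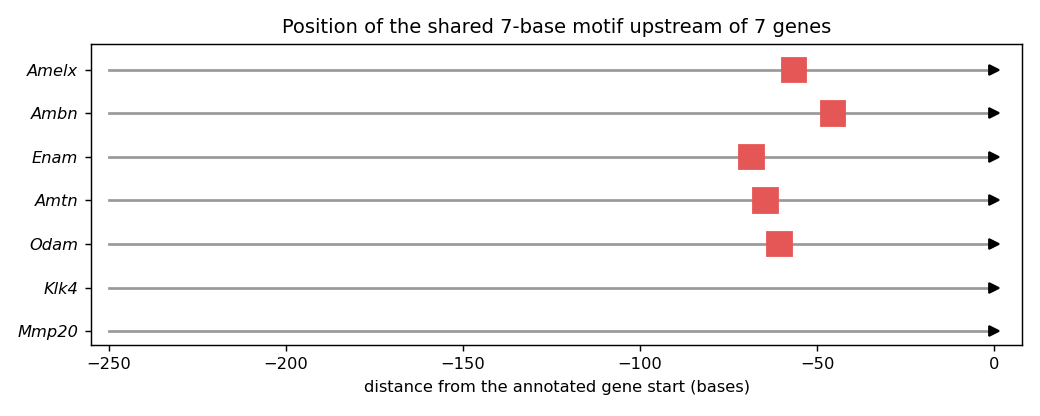
Distance in bases from the annotated start (arrowhead) of the 7-base motif, drawn as a red box, in the 250 bases upstream of 7 genes. The boxes of the 5 enamel matrix genes begin between 72 and 49 bases before the start, and *Klk4* and *Mmp20* have none.

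The values are FPKM, in which fragments are divided by transcript length and library size, so levels of different genes can be set beside each other. The bone markers *Bglap*, *Sp7* and *Ibsp* were high in each library, with *Bglap* between 5220 and 7982 FPKM. *Col1a1* and *Col1a2*, which bone expresses abundantly, were listed at 0 in 3 of the 4 libraries, and a value of 0 is therefore given only as listed. *Twist1* itself was at 59.0 FPKM in wild-type and 30.4 FPKM in *Twist1*+/- frontal bone, whereas parietal bone gave 52.5 FPKM in wild-type and 50.7 FPKM in the library labelled *Twist1*+/-. Directions drawn from that library rest on its label. The value of a single read was estimated from genes with low values, and relative to wild-type frontal bone it lay between 1.29 and 1.68 in the others. The estimate is least certain in wild-type frontal bone, where 67 of 152 genes lay near the peak used. Numbers of reads for single genes are estimates of this kind. A difference was called when it exceeded 3-fold and the higher value reached 1 FPKM. In bulk RNA, fewer cells of a type and less RNA per cell cannot be told apart.

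All 8 genes were higher in each *Twist1*+/- library than in each wild-type library. Of these genes 6 reached 1 FPKM somewhere, and among all 14760 genes that did so 12.4% showed the same arrangement. Beyond this shared order the genes fell into different profiles. *Dspp*, *Klk4* and *Mmp20* had most of their signal in *Twist1*+/- frontal bone, *Ambn*, *Enam*, *Amtn* and *Odam* were nearly equal in the *Twist1*+/- libraries, and *Amelx* was highest in labelled *Twist1*+/- parietal bone. The lowest level was that of wild-type parietal bone for 7 of the 8 genes, *Klk4* being the exception, against 35.1% of all genes that reached 1 FPKM. Without replicates it cannot be said which neighbouring levels in these orders differ beyond their spread.

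**Figure D2:**
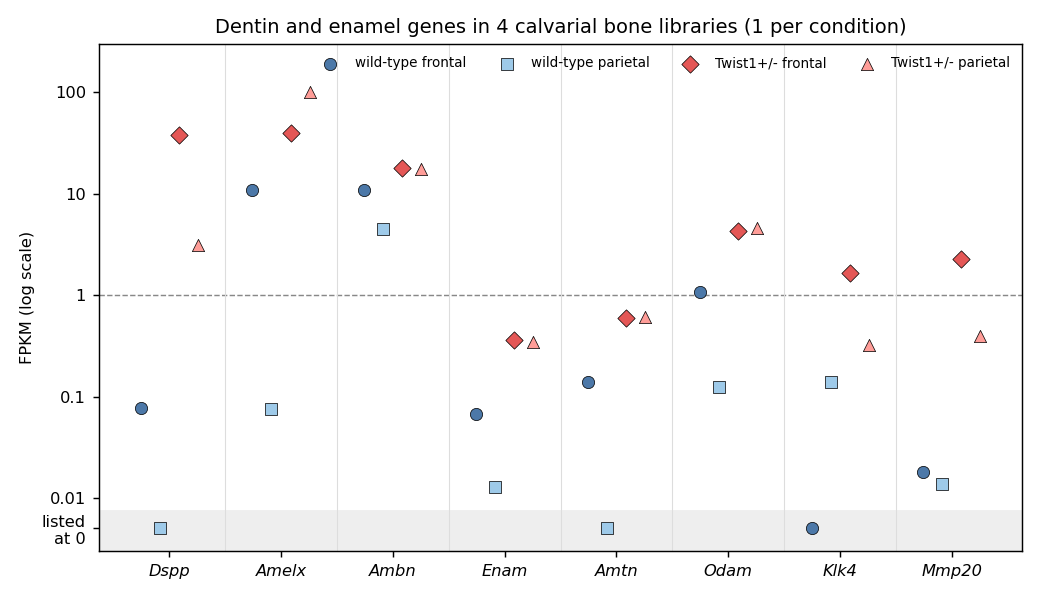
FPKM on a log scale of the 8 genes in the 4 libraries, 1 point per library, with values listed at 0 in the grey strip and the 1 FPKM floor as a dashed line. The *Twist1*+/- points (red) lie above the wild-type points (blue) for every gene, and *Dspp* runs from listed at 0 to 37.6 FPKM.

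*Dspp* in wild-type mice was at 0.0771 FPKM in frontal bone and listed at 0 in parietal bone. In *Twist1*+/- mice it was at 37.6 FPKM in frontal and 3.14 FPKM in labelled parietal bone. The *Twist1*+/- libraries thus stood above the wild-type ones, and *Twist1*+/- frontal bone alone held 92.1% of the signal summed over the libraries. These levels correspond to an estimated 14.1 reads in wild-type frontal, 5326 reads in *Twist1*+/- frontal and 346 reads in labelled *Twist1*+/- parietal bone. In *Twist1*+/- frontal bone *Dspp* ranked 1748 among the 23946 genes by level, against 17218 in wild-type frontal bone. The frontal ratio was 487-fold (log2 ratio 8.93), and *Dspp* was 12.0-fold lower in labelled *Twist1*+/- parietal than in *Twist1*+/- frontal bone (log2 ratio -3.58). No ratio is given between the parietal bones, since the wild-type value is listed at 0.

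The neighbours of *Dspp* in the SIBLING cluster did not share its profile. *Dmp1*, which encodes a phosphoprotein of osteocytes and dentin, was at 99.4 FPKM in wild-type frontal, 291 FPKM in wild-type parietal, 91.1 FPKM in *Twist1*+/- frontal and 159 FPKM in labelled *Twist1*+/- parietal bone. Its frontal levels were close to each other, and it was highest where *Dspp* was listed at 0. Within *Twist1*+/- frontal bone the level of *Dmp1* was 2.42 times that of *Dspp*, against 50.5 times in labelled *Twist1*+/- parietal and 1289 times in wild-type frontal bone. *Ibsp* (bone sialoprotein), *Mepe* and *Spp1* (osteopontin) were not called in either comparison of genotypes. *Ibsp* was the only SIBLING gene called between the wild-type bones, with 278 FPKM in frontal and 869 FPKM in parietal bone. *Dmp1*, *Mepe* and *Spp1* were also higher in wild-type parietal bone, but below the 3-fold threshold. *Spp1*, at 4107 FPKM in frontal and 12239 FPKM in parietal bone, lay just under it.

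*Mmp20*, the protease that trims enamel matrix during secretion, followed *Dspp* most closely among the 8 genes. It was at 0.0181 FPKM in wild-type frontal, 0.0137 FPKM in wild-type parietal, 2.26 FPKM in *Twist1*+/- frontal and 0.395 FPKM in labelled *Twist1*+/- parietal bone. The wild-type values rest on an estimated 2.4 and 1.1 reads, so both are near the limit of detection, whereas the *Twist1*+/- frontal value rests on 233 reads. The frontal ratio was 125-fold, with a 95% interval of 41.1 to 1248 that covers counting error only. *Klk4*, which removes the remaining matrix as enamel hardens, was listed at 0 in wild-type frontal bone and was at 0.139 FPKM in wild-type parietal, 1.67 FPKM in *Twist1*+/- frontal and 0.319 FPKM in labelled *Twist1*+/- parietal bone. *Twist1*+/- frontal bone again stood apart, with an estimated 58.6 reads against 8.7 reads or fewer in the other libraries. *Mmp20* was 1.36 times as high as *Klk4* in *Twist1*+/- frontal and 1.24 times in labelled *Twist1*+/- parietal bone. *Slc24a4*, an ion exchanger needed for enamel maturation, had its highest value in the same library, with 0.716, 0.736, 3.07 and 0.777 FPKM in wild-type frontal, wild-type parietal, *Twist1*+/- frontal and labelled *Twist1*+/- parietal bone.

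*Amelx*, the most abundant enamel matrix gene of the *Twist1*+/- libraries, stood at 10.8 FPKM in frontal and 0.0760 FPKM in parietal bone of wild-type mice. In *Twist1*+/- mice it stood at 39.6 FPKM in frontal and 101 FPKM in labelled parietal bone, where it ranked 738 among all genes by level. Wild-type parietal bone therefore stood far below the other libraries, with an estimated 1.3 reads. *Arhgap6*, whose span contains *Amelx*, did not share this profile and lay between 0.969 and 1.92 FPKM in the 4 libraries. The methods name a stranded library kit, but the sources used here do not state whether strand was used in quantification.

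*Ambn* had the narrowest range of the 8 genes and was the only one that reached 1 FPKM in every library. It was at 10.9 FPKM in wild-type frontal, 4.50 FPKM in wild-type parietal, 18.1 FPKM in *Twist1*+/- frontal and 17.3 FPKM in labelled *Twist1*+/- parietal bone. Even its lowest value rests on an estimated 191 reads. *Odam* was at 1.06, 0.123, 4.27 and 4.59 FPKM in the same order of libraries, a wider range with the same ranking of wild-type frontal above wild-type parietal bone. *Enam* was at 0.0672, 0.0127, 0.360 and 0.347 FPKM, and *Amtn* was at 0.138 FPKM in wild-type frontal bone, listed at 0 in wild-type parietal bone, and at 0.597 and 0.613 FPKM in the *Twist1*+/- libraries. *Enam* and *Amtn* reached 1 FPKM in no library and were never called, although the *Twist1*+/- values of each rest on between 13.1 and 63.6 estimated reads.

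Where they could be compared, the low enamel genes kept similar proportions within a library, though some wild-type values rest on few reads. *Odam* was 7.68 times as high as *Amtn* in wild-type frontal, 7.16 times in *Twist1*+/- frontal and 7.49 times in labelled *Twist1*+/- parietal bone. The wild-type frontal value of *Amtn* rests on an estimated 4.9 reads, and in wild-type parietal bone *Amtn* was listed at 0. *Odam* to *Enam* lay between 9.64 and 15.8 over the 4 libraries. The 9.64, of wild-type parietal bone, rests on an estimated 3.7 reads of *Odam* and 1.7 of *Enam*. The more abundant matrix genes did not hold such a ratio. *Ambn* to *Odam* was 36.6 in wild-type parietal bone, 10.2 in wild-type frontal bone and 3.78 to 4.24 in the *Twist1*+/- libraries, and *Amelx* to *Odam* ranged from 0.619 in wild-type parietal to 22.0 in labelled *Twist1*+/- parietal bone. Both wild-type parietal ratios use the same estimated 3.7 reads of *Odam*. *Dspp* to *Odam* was 0.0726 in wild-type frontal, 8.80 in *Twist1*+/- frontal and 0.684 in labelled *Twist1*+/- parietal bone.

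The comparison of *Twist1*+/- with wild-type frontal bone set 1 library of each genotype side by side in the bone of neural crest origin. There 5 of the 8 genes were called higher, namely *Dspp*, *Amelx*, *Odam*, *Klk4* and *Mmp20*, and none was called lower. Of all 14341 genes that reached 1 FPKM in this pair, 3.17% were called higher and 0.725% lower (3.89% together), and *Dspp* was the gene for which the list was chosen in this same pair. *Amelx* was 3.66-fold and *Odam* 4.02-fold higher, both not far above the threshold, while *Ambn* was 1.66-fold higher and was not called. With 1 FPKM added to each value the median difference in log2 over the 8 genes was 1.39, against -0.03 over all genes that reached the floor, and *Odam* and *Klk4* were no longer called.

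In the comparison of the parietal bones, the bones of mesodermal origin, 4 of the 8 genes were called higher in the library labelled *Twist1*+/-, namely *Dspp*, *Amelx*, *Ambn* and *Odam*. None was called lower, and of all 13914 genes that reached 1 FPKM in this pair 5.25% were called higher and 2.94% lower (8.19% together). *Amelx* was 1332-fold higher, a ratio whose 95% counting interval of 310 to 68460 is wide because the wild-type value rests on an estimated 1.3 reads. *Odam* was 37.4-fold and *Ambn* 3.86-fold higher. The wild-type value of *Odam* rests on an estimated 3.7 reads, and no counting interval was computed for it. *Enam* was 27.3-fold higher (6.11 to 198, counting error only) and *Mmp20* 28.8-fold higher (5.36 to 1305), but neither reached 1 FPKM, and *Klk4* was 2.29-fold higher at 0.319 FPKM. The ratios of this pair also rose with the GC content of genes, from a median log2 ratio of -0.58 in the lowest of 20 groups to 0.61 in the highest. The GC content of the 8 genes lay between 41.2% and 54.4%, and the count of called genes was 4 after the trend was subtracted.

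**Figure D3:**
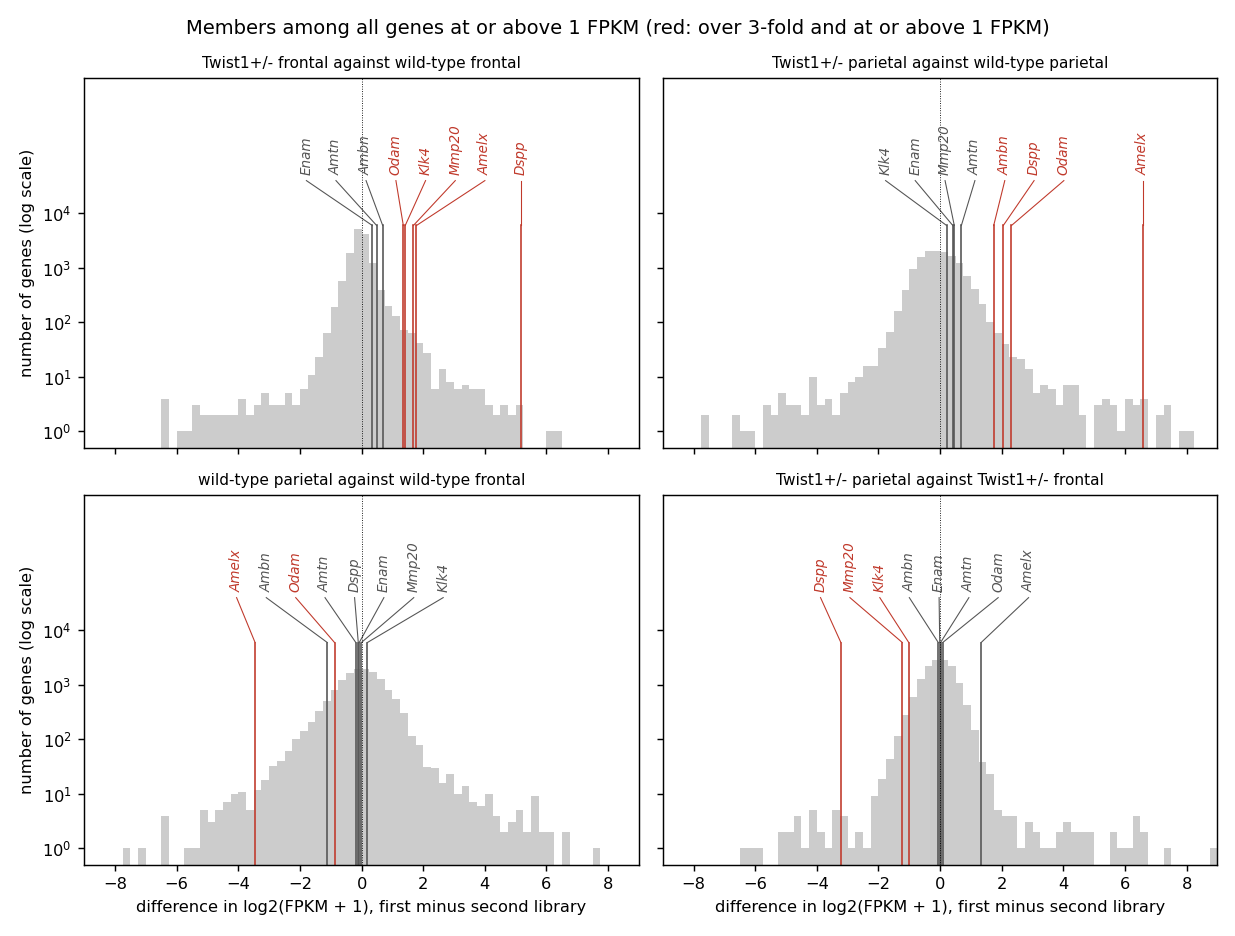
Difference in log2(FPKM + 1) between the libraries of each comparison on the horizontal axis, with the number of genes on a log axis (grey bars, genes that reached 1 FPKM in the pair) and the 8 genes as lines, red where called. In the comparisons of genotypes, drawn in the upper panels, all 8 lines lie to the right of 0, with *Dspp* at 5.16 between the frontal bones and *Amelx* at 6.57 between the parietal bones.

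Between the bones of wild-type mice 7 of the 8 genes had lower values in parietal than in frontal bone, and *Klk4* had a higher one. *Amelx* was 142-fold (32.9 to 7318, counting error only) and *Odam* 8.66-fold lower in parietal bone, and they were the 2 genes called, against 9.2% of 14214 genes called lower and 4.07% called higher (13.3% together). The parietal value of *Odam* rests on an estimated 3.7 reads, and its ratio has no counting interval. *Ambn* was 2.42-fold lower and, of the alternatives tried, passed 3-fold only after scaling to *Gapdh*. *Dspp*, *Enam*, *Amtn*, *Klk4* and *Mmp20* were below 0.14 FPKM in both wild-type bones and were not evaluated. In the *Twist1*+/- bones other genes differed. *Dspp*, *Klk4* (5.24-fold) and *Mmp20* (5.74-fold) were called lower in labelled parietal than in frontal bone, against 3.24% of 14305 genes called lower and 0.846% called higher (4.09% together). The 5 enamel matrix genes were not called, with ratios from 1.03-fold for *Amtn* and *Enam* to 2.56-fold for *Amelx*, which was higher in parietal bone. The 4 comparisons share libraries and are not independent of each other.

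Genes that act with dentin and enamel proteins were examined as lists. Of all genes that reached 1 FPKM, 3.89% were called between the frontal and 8.19% between the parietal genotypes. Between the bones 13.3% were called in wild-type and 4.09% in *Twist1*+/- mice. Among 7 genes for phosphorylation and processing of the matrix, among them the secretory kinase *Fam20c* and the protease *Bmp1*, none was called in any of the 4 comparisons. *Fam20c* was at 21.6, 37.6, 20.7 and 28.3 FPKM in wild-type frontal, wild-type parietal, *Twist1*+/- frontal and labelled *Twist1*+/- parietal bone. Among 15 genes of dental mesenchyme and odontoblasts, many of which bone also expresses, *Barx1* alone was called between the frontal bones, higher in *Twist1*+/- (0.274 against 1.03 FPKM). *Dlx1*, *Dlx2* and *Dlx3*, homeobox genes of the craniofacial mesenchyme, were called higher in labelled *Twist1*+/- than in wild-type parietal bone, with *Dlx1* at 2.92 FPKM against 0.301 FPKM. *Panx3*, a channel protein of osteoblasts and odontoblasts, was called between the wild-type bones only, higher in parietal bone, and so was *Msx2*. *Dlx1* and *Dlx2* were called lower in wild-type parietal than in wild-type frontal bone, at 0.301 against 7.47 FPKM and 0.223 against 2.04 FPKM. In *Twist1*+/- frontal bone *Dlx1* was at 6.62 FPKM, so its labelled *Twist1*+/- parietal level lay below both frontal ones. Over this list the median difference in log2(FPKM + 1) was 0.16 between the frontal and 0.28 between the parietal genotypes.

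Of 22 other genes needed for enamel or expressed in dental epithelium, 11 reached 1 FPKM in the frontal pair and 10 in the parietal pair. Against 3.89% and 8.19% of all genes that reached 1 FPKM, a single gene was called in each. These were *Slc24a4*, 4.28-fold higher in *Twist1*+/- frontal bone, and *Sp6*, a transcription factor of dental epithelium, at 0.361 FPKM in wild-type and 2.07 FPKM in labelled *Twist1*+/- parietal bone. *Cldn16* was listed at 0 in all 4 libraries. Of the 12 other kallikrein genes, *Klk14* was called higher in both genotype comparisons, with 0.188 FPKM in wild-type frontal bone, a value listed at 0 in wild-type parietal bone, and 2.43 and 2.83 FPKM in the *Twist1*+/- libraries. *Klk1* was also called between the parietal bones, from 0.301 to 2.52 FPKM. Of all genes that reached 1 FPKM, 3.17% were called higher in the frontal and 5.25% in the parietal pair. *Klk14* did not share the low parietal value of *Klk4* in *Twist1*+/- mice.

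Markers of other tissues also differed between the libraries. The summed level of 10 nasal epithelium genes was 314 FPKM in wild-type frontal, 24.2 FPKM in wild-type parietal, 1583 FPKM in *Twist1*+/- frontal and 1649 FPKM in labelled *Twist1*+/- parietal bone. Of these genes 7 were called higher in *Twist1*+/- frontal and 9 in labelled *Twist1*+/- parietal bone, against 3.17% and 5.25% of all genes. *Scgb1a1* was listed at 0 throughout. The order of their sum over the libraries was that of *Amelx*, *Odam* and *Amtn*, but the *Twist1*+/- sums lay close together. Of the single genes 5 were higher and 4 lower in labelled *Twist1*+/- parietal than in *Twist1*+/- frontal bone. *Cyp2g1* was called lower in that parietal library, at 34.2 against 133 FPKM. Per 1000 FPKM of nasal markers, *Odam* was at 3.39, 5.06, 2.70 and 2.78 FPKM and *Enam* at 0.214, 0.525, 0.227 and 0.211 FPKM. The order is wild-type frontal, wild-type parietal, *Twist1*+/- frontal and labelled *Twist1*+/- parietal bone. The wild-type parietal values rest on an estimated 3.7 reads of *Odam* and 1.7 of *Enam*. *Amtn* was at 0.441, 0, 0.377 and 0.372 FPKM on this scale. *Dspp* on the same scale was at 0.246 FPKM in wild-type frontal, 23.8 FPKM in *Twist1*+/- frontal and 1.90 FPKM in labelled *Twist1*+/- parietal bone, and did not keep a ratio.

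The summed level of 14 skeletal muscle genes was 145 FPKM in wild-type frontal, 4570 FPKM in wild-type parietal, 1655 FPKM in *Twist1*+/- frontal and 2222 FPKM in labelled *Twist1*+/- parietal bone. Between the frontal bones 13 of them were called higher in *Twist1*+/-, in the direction of *Dspp*, against 3.17% of all genes. However, muscle markers were highest in wild-type parietal bone, where 7 of the 8 tooth genes were lowest. The 10 brain and meninges genes summed to 2297, 111, 660 and 758 FPKM in the same order of libraries. Of these 4 were called lower in *Twist1*+/- frontal bone, against 0.725% of all genes. In labelled *Twist1*+/- parietal bone 5 were called higher, against 5.25% of all genes. The 10 epidermis genes summed to 5.58, 4.67, 8.20 and 24.0 FPKM, with *Dsg1a* listed at 0 throughout. *Krt5* was called higher in both *Twist1*+/- libraries. In the parietal pair *Krt14*, *Lor* and *Krtdap* were also called higher in the library labelled *Twist1*+/-, with *Krtdap* at 11.4 against 0.157 FPKM. *Krtdap* was called higher in that library than in *Twist1*+/- frontal bone as well, where it was at 0.348 FPKM. In log2(FPKM + 1), the median genotype difference of the 8 osteocyte markers was 0.20 in frontal and -0.14 in parietal bone. No osteocyte marker was called between the frontal bones. Between the parietal bones *Sost* was called higher in the library labelled *Twist1*+/- (75.1 against 18.3 FPKM) and *Fgf23* lower (0.202 against 20.9 FPKM). Of the 10 osteoblast markers, *Col1a1* and *Col1a2* were the only ones called between genotypes, in the parietal pair, where they were listed at 0 in the labelled *Twist1*+/- library. The part of nasal, muscle, brain or epidermal tissue in the levels of the dentin and enamel genes was not tested.

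**Figure D4:**
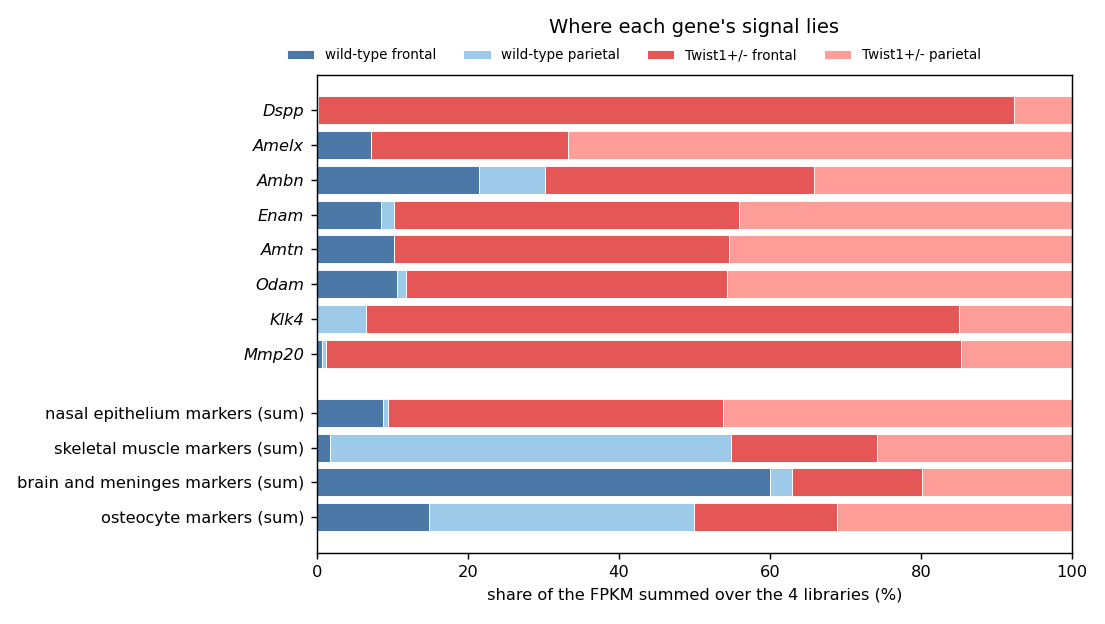
Share in percent of the FPKM summed over the 4 libraries that each library holds, for the 8 genes and for the summed markers of 4 lists (nasal epithelium, skeletal muscle, brain and meninges, osteocytes). *Dspp*, *Klk4* and *Mmp20* have 92.1%, 78.5% and 84.2% in *Twist1*+/- frontal bone, while *Enam*, *Amtn* and *Odam* split nearly evenly between the *Twist1*+/- libraries.

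The genes whose profile was most like that of *Dspp* were sought by the distance between centred log2(FPKM + 1) values over the 4 libraries, among 14759 genes. The nearest 5 were *Snora30*, *Mir6973a*, *Mir6990*, *Bpifb6* and *Mir5709*, with distances of 1.63 to 1.70. All but *Bpifb6* are short RNA genes listed at 0 in the other 3 libraries. *Bpifb6*, of a family of secreted proteins found in nasal and oral epithelium, was at 0.395, 0.419, 16.6 and 8.54 FPKM in wild-type frontal, wild-type parietal, *Twist1*+/- frontal and labelled *Twist1*+/- parietal bone. When the share of the signal in each library was compared instead, the nearest genes included the odorant receptor genes *Olfr1447*, *Olfr1370* and *Olfr1350* with *Npcd*, and *Mmp20* came at rank 6 and *Klk4* at rank 32. On that measure *Odam* stood at rank 677, *Ambn* at 937 and *Amelx* at 13643. By the distance first used, *Mmp20* stood at rank 118, *Odam* at 137, *Klk4* at 212, *Ambn* at 296 and *Amelx* at 2418. *Odam* was thus nearer to *Dspp* than *Klk4* was on the distance, and farther on the share.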

How the data were processed

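Poly(A) RNA was captured from total RNA of frontal and parietal bones (12 mice of each strain), and single-end sequencing gave 75-base reads. How mice were divided among libraries is not given in the sources used here. The authors aligned reads to mm9 with STAR 2.4.2a and obtained FPKM per gene with Cuffdiff of Cufflinks 2.2.1. The deposited FPKM values, 1 per gene and library, were used as they stand, and the scaling option is not given in the sources used here. Libraries were grouped by their labels. With 1 library per condition no comparison has replicates, and no test was run. An additive fit of genotype and bone over the 4 libraries, which would leave 1 residual degree of freedom, was not run. Calls required a ratio above 3-fold with the larger FPKM at 1 or more, and a value listed at 0 against such an FPKM was also called. The fold change was also taken as the difference in log2(FPKM + 1), which understates the change of low genes.

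Gene positions and lengths came from GENCODE M1 (mm9), whose symbols matched 20892 of 23946 genes. The value of a read came from FPKM times transcript length, less 200 bases, in kilobases. Genes with 1 coding transcript of at least 1500 bases were used. The median near the tallest peak of these products below 0.06 was taken, and that this peak stands for 1 read was assumed. The values of a read correspond to between about 25700000 and 43100000 reads per library. The methods state a larger average per replicate, so numbers of reads given for single genes may be too low. Intervals (exact Clopper-Pearson, 95%) cover counting error only. Alternatives were adding 1 or 0.1 FPKM to both values, dropping the floor or raising it to 10 FPKM, thresholds of 2-fold and 8-fold, scaling to the median ratio or to *Gapdh*, and subtraction of a GC trend over 20 groups. The last was chosen after the data had been seen. Named were all 8 genes, members of fixed lists that were called or high, and the 5 genes most like *Dspp*. A gene that the second measure of likeness would name is not reported here. *Fdcsp*, of the list of casein and saliva genes, was not in the tables. The 8 genes and the lists were chosen with earlier results of these data known. Calls were tested on simulated data. Python 3.11.15, numpy 2.4.6 and pandas 2.3.3 were used.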

Additional observations from a re-analysis of the deposited data

Results flagged for a closer look

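For 4 of the 8 genes the difference between parietal and frontal bone, in log2(FPKM + 1), had opposite signs in wild-type and *Twist1*+/- mice. *Amelx* was lower in parietal bone by -3.46 in wild-type and higher by 1.33 in *Twist1*+/- mice. *Odam* differed by -0.88 in wild-type and by 0.084 in *Twist1*+/- mice, and *Amtn* by -0.19 and 0.014. *Klk4* went the other way, with 0.19 in wild-type and -1.02 in *Twist1*+/- mice. With 1 library per condition the difference between genotypes was not tested, and apart from *Amelx* at least 1 of the values in each gene is small.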

How the results depend on the processing

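The frontal count of 5 called genes became 3 with a pseudocount of 1 FPKM, 2 with a floor of 10 FPKM and 3 at 8-fold, while the share of all genes called went from 3.89% to 1.62%, 2.24% and 1.2%. The parietal count of 4 became 7 without a floor and 2 with a floor of 10 FPKM, with 19.3% and 4.41% of all genes called against 8.19%. Between the wild-type bones the count of 2 became 1 with a pseudocount of 1 FPKM, 6 without a floor and 1 with a floor of 10 FPKM, with 6.44%, 23.6% and 8.26% of all genes called against 13.3%. Between the *Twist1*+/- bones the count of 3 became 1 under each of a pseudocount of 1 FPKM, a floor of 10 FPKM and 8-fold, with 0.993%, 1.75% and 0.762% of all genes called against 4.09%. A changed floor or threshold alters by construction how many genes can be called, and for the pseudocount the cause was not tested. Neither scaling nor the GC subtraction moved a count by more than 1.5 times. Of 125 recomputed log2 ratios, 109 kept their direction and side of the 3-fold threshold, 12 fell below it, 2 passed it and 2 reversed. The reversed ones, after GC subtraction between the *Twist1*+/- bones, were *Ambn* (-0.06 to 0.14) and *Enam* (-0.05 to 0.22), and the cause was not tested. A fit of genotype with bone as the block, which would leave 1 residual degree of freedom, was not run, and the labels give no replicate numbers to pair by. Ratios with a value listed at 0 were not recomputed. *Klk4*, *Mmp20*, *Enam* and *Amtn* in wild-type bone are limited by depth.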

Other observations

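The genes most like *Amelx* were sought by the same distance, a search added after its values had been seen. The nearest 5 of 14759 genes were *Scgb1c1*, *Lcn3*, *Wfdc18*, *Bpifa1* and *Vmo1*, with distances of 0.710 to 1.08, against 1.63 for the gene nearest to *Dspp*. *Lcn3* and *Bpifa1* encode secreted proteins of nasal glands and epithelium. *Lcn3* was at 16.4 FPKM in frontal and 0.251 FPKM in parietal bone of wild-type mice, and at 29.3 and 88.5 FPKM in those of *Twist1*+/- mice, so that its order over the libraries was that of *Amelx*. By share of the signal in each library the nearest 5 were *Slurp1*, *Dmbt1*, *Krt14*, *Fxyd3* and *Lalba*, and *Krt14*, a keratin of basal epithelium, was at 0.130, 0.0483, 0.688 and 1.80 FPKM. *Odam* was at rank 77 by distance and 129 by share.

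The casein and saliva genes, some of which lie among or beside the enamel genes on chromosome 5, were near or at 0 in wild-type bone. Of the 8 measured, wild-type frontal bone had 7 listed at 0, wild-type parietal bone 3, *Twist1*+/- frontal bone 2 and labelled *Twist1*+/- parietal bone 3. *Csn1s2b*, a milk protein gene that precedes *Odam*, was listed at 0 in wild-type frontal bone and was at 0.0675 FPKM in wild-type parietal, 1.39 FPKM in *Twist1*+/- frontal and 0.457 FPKM in labelled *Twist1*+/- parietal bone. It was the only gene of this list that was called between the frontal bones. *Smr3a* was at 0.178, 0.102, 0.582 and 0.740 FPKM in the same order, and *Smr2* and *Prol1* were listed at 0 in all 4 libraries.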
